A study of Mus musculus with 8 samples.

Results

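The cytosolic ribosomal protein genes were taken from brain RNA of male ICR mice, an outbred strain, measured on Clariom S arrays. They were the rows of the deposited table whose gene symbol starts with Rpl or Rps and a digit, or is Rplp0, Rplp1, Rplp2 or Rpsa; S6 kinase and S19 binding protein genes and named pseudogenes were left out. The rule found 67 genes, each with 1 row, of 19505 named genes on 22206 rows. By role, 31 encode proteins of the large subunit, 22 proteins of the small subunit and 2 proteins of the P stalk, and 12 are paralogues or retrocopies. Rplp2, Rpl10, Rpl13a, Rpl26l1 and Rps27 were not analysed here. Choosing by symbol used no measured value, but the set was chosen with earlier results of these data known.

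There were 4 groups of 2 arrays, 1 array per RNA sample. All mice were bought at 8 weeks of age, acclimatised, and for 7 days given water or rosemary extract (RE). The tail suspension test (TST), which holds a mouse up by the tail and times how long it stays immobile, was both readout and stressor. A first group was given water and had no TST. The other 3 had TST and were given water, RE at the low dose of 10 mg/kg, or RE at the high dose. For the high dose the titles give 100 mg/kg and the source names 50 mg/kg. All mice of the study were given the extract or its vehicle, and no group received RE without TST. Groups follow the sample titles; in a separate field the unstressed water group is the positive control and the stressed one the negative control, and exchanging them would turn the sign of the TST comparison and change the water arrays against which RE is set in the 3 comparisons of RE with water. Each group was assigned 7 mice, and whether the 2 RNA samples of a group were single mice or pools is not stated, so the spread behind the p-values may be technical. The tissue is named as limbic system in some fields and hippocampus in another. In all values below, a pair is given as replicate 1 and then replicate 2, in log2 signal, and a difference is a log2 difference with its standard error (SE) from the limma fit, with n = 2 arrays per group.

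Ribosomes translate messenger RNA into protein. Their small subunit holds the decoding site, and their large subunit joins the amino acids and carries a stalk of P proteins that recruits translation factors. Cells make the ribosomal proteins in matched amounts. Many of their messenger RNAs begin with a cytosine and a run of pyrimidines, the terminal oligopyrimidine (TOP) motif, through which mTOR signalling controls their translation. In neurons, ribosomes also lie in dendrites and axons, where local translation takes part in synaptic plasticity.

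A minority of the annotated start sites of these genes hold such a run, and 8 sites, 4 with it and 4 without, are printed because they include genes at both ends of the spread on water with TST replicate 2, an array described later. In the RefSeq promoter table (GRCm38.p6), 54 of the 67 genes had an entry. A cytosine at the first transcribed base followed by at least 4 pyrimidines was found in 13 of the 54 (24.1%), and in 813 of all 27025 genes of the table (3.01%). The letters CTTTC, read on the coding strand only and lying within 10 bases either side of the start, were found in 10 of the 54 (18.5%) and in 2.91% of all genes. Over promoters rather than genes, the shares were 2.51% and 2.44%. The features can overlap, and 16 of the 54 (29.6%) held either, against 5.48% of all genes. A match is a description of letters and does not show that a start is used in this tissue. A missing match does not show that a messenger RNA lacks the motif. A run that ends before the annotated start, or has T at it, was not counted as a cytosine run. Each sequence has 20 bases before the annotated start and 10 from it, 5′ to 3′ on the gene's strand, and capitals mark the pyrimidine run that begins at the start. The first 4 hold the motif.
Rps6, chr4:86857358-86857387, minus strand: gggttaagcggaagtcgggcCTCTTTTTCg
Rps18, chr17:33955656-33955685, minus strand: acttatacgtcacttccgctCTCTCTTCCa
Rpl28, chr7:4792945-4792974, plus strand: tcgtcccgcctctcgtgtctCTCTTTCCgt
Rpl38, chr11:114668560-114668589, plus strand: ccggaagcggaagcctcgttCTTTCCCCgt
The next 4 have no such run at the annotated start.
Rps16, chr7:28350669-28350698, plus strand: taaagcccgcttctgtcgtgacgtagcact
Rps26, chr10:128626497-128626526, minus strand: agcgggtcgggcaagccgccggatcctctt
Rplp0, chr5:115559447-115559476, plus strand: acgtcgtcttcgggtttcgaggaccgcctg
Rps27l, chr9:66946066-66946095, plus strand: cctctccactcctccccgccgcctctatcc

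Several arrays stand apart in markers of brain regions and cell types, water with TST replicate 2 in the most lists. It correlated with the other arrays at 0.967 to 0.978 over all rows. Of the listed markers of cerebellar cells, 11 of 12 were measured and all 11 were highest on it. Their mean deviation from the 8-array mean was 5.03 there, 2.92 on water without TST replicate 1, and between -1.71 and -0.58 on the other arrays. Of 9 measured markers of forebrain excitatory neurons (10 listed), 8 were lowest on water with TST replicate 2, and the mean deviation of all 9 there was -2.11. The remaining marker, Neurod2, was highest there, at 9.38. Of 8 measured markers of dentate gyrus and hippocampal pyramidal cells (10 listed), 7 were lowest there; their mean level was 8.22 on that array and 8.92 to 9.44 on the others. The hippocampal marker Prox1 was instead highest there, at 11.24. Markers of thalamic neurons were lowest there in 8 of 8, and those of choroid plexus in 6 of 8. Of 9 measured microglia markers (10 listed), 6 were lowest there, with a mean deviation of -0.81. Of 8 astrocyte markers, 5 were highest and 2 lowest there, with a mean deviation of 0.48. The mean deviation there was 0.14 for oligodendrocyte markers and 0.03 for those of endothelial and mural cells. On water without TST replicate 2, markers of striatal projection neurons were highest in 7 of 7 measured (9 listed), with a mean deviation of 1.89. Of these 7, 5 were lowest on water with TST replicate 2, with a mean deviation of -1.155, and 2 on low-dose RE replicate 2, with -0.74. On low-dose RE replicate 2, choroid plexus markers were highest in 8 of 8, with a mean deviation of 0.90. The mean deviation of thalamic markers was 0.34 to 0.91 on the 4 RE arrays and -0.45 and -0.35 on the unstressed arrays, so that it moves with the comparison of RE against unstressed water. The part of these marker differences in the gene values was not tested. Array medians over all rows lay between 7.45 and 7.51. Detection calls were not used here, so that no marker can be called absent.

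As a set, the ribosomal protein genes were bright. The row means ran from 4.47 (Rpl3l) to 16.87 (Rps23) with a median of 12.59, where the median of all values was 7.47. A row's signal depends on its probes, so these means give no order of expression between genes. Over the 8 arrays, the median range of a gene was 0.66, against 0.88 for all rows and 0.72 for the 5907 rows with a mean above 10. The range exceeded 1 in 9 of the 67 genes, in 37.9% of all rows and in 28.1% of the rows with a mean above 10. Of the 536 values of these genes, 24 (4.48%), in 5 genes, were above 16, against 0.765% of all values. A log2 signal of 16 is the limit of the scanner, and the sources used here do not say how the deposited values came to exceed it.

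The steadiest genes were large-subunit genes. Rpl32 was at 13.23 and 13.27 in water without TST, 13.19 and 13.16 in water with TST, 13.10 and 13.24 at the low dose and 13.30 and 13.30 at the high dose. Its 8 values span 0.20. Rpl11, whose protein binds Mdm2 together with Rpl5 when ribosome assembly is disturbed, was at 13.67 and 13.70, then 13.77 and 13.72, then 13.89 and 13.76, and last 13.86 and 13.96 in the same order of groups. Rpl7 ranged from 13.84 to 14.13. The values of Rpl11 and of Rpl7 each span 0.29, close to the size of 1 SE of a difference (0.213 for Rpl11 and 0.217 for Rpl7).

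In the genes with the widest range, the extreme values lay on few arrays. Rpl36al, a copy of Rpl36a without introns, was at 8.62 and 8.41 in water without TST, 8.79 and 7.44 in water with TST, 9.04 and 8.43 at the low dose and 8.52 and 8.69 at the high dose, a range of 1.60. Its single low value is that of water with TST replicate 2. Rps26, a small-subunit protein near the exit of the messenger RNA channel, was at 11.39 and 11.68, 11.29 and 10.25, 11.41 and 10.80, and 10.70 and 11.30, a range of 1.43, with its lowest value again on that array. Rps27rt, a retrocopy of Rps27, was at 9.05 and 9.63, 9.53 and 8.36, 9.34 and 9.34, and 9.41 and 9.70, and its low value of 8.36 lies on the same array. Rpl10a, a protein of the L1 stalk, was at 12.79 and 13.22, 13.74 and 12.40, 13.39 and 13.65, and 13.03 and 13.23. Water with TST held both its highest and its lowest value. Rps9 was at 9.50 and 9.72, 10.02 and 9.20, 10.30 and 9.10, and 9.56 and 10.03, lowest on low-dose RE replicate 2 and highest on the other array of that group.

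**Figure D1:**
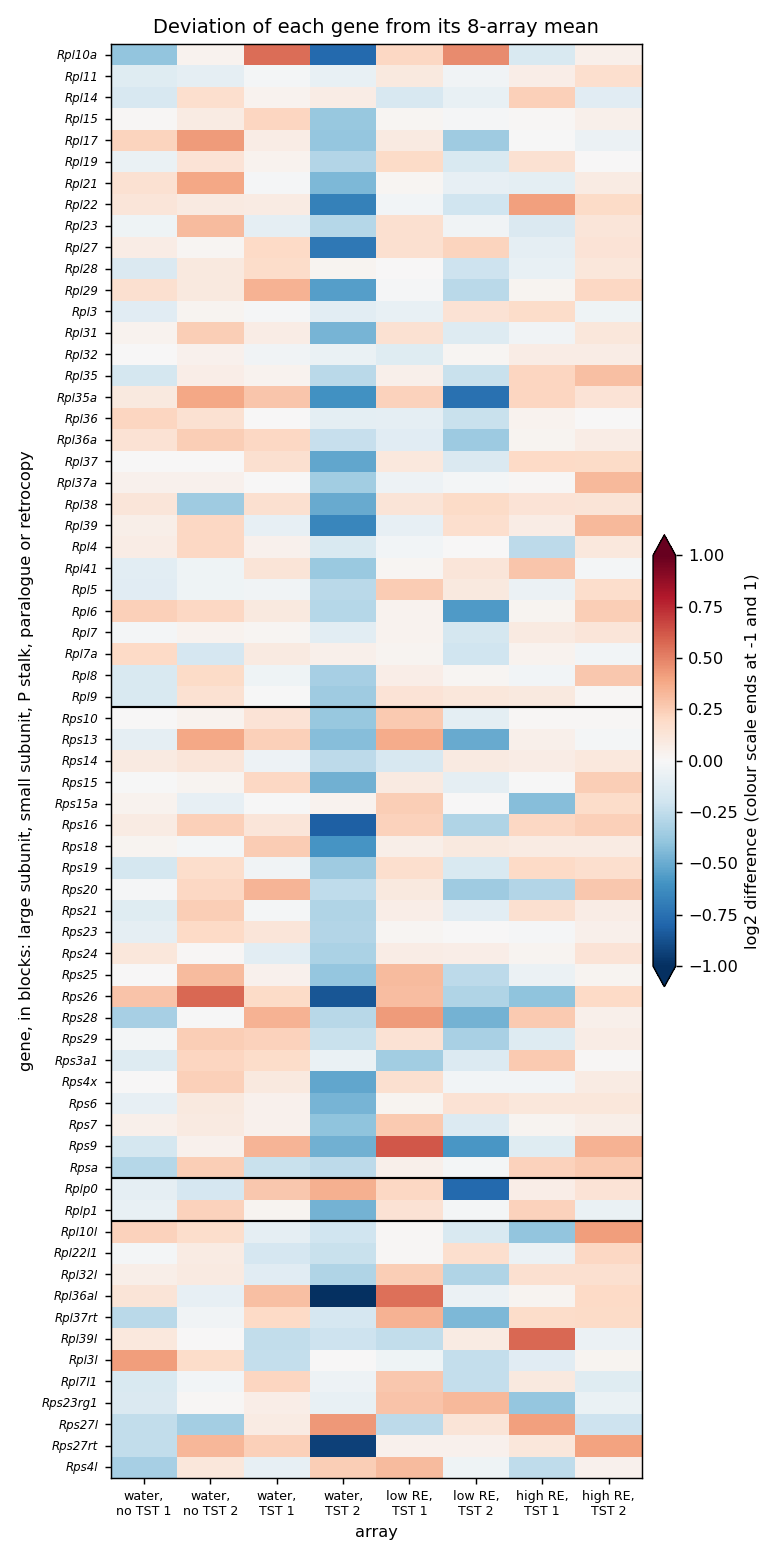
Deviation of each of the 67 genes (rows, in blocks by role) from its own 8-array mean, in log2 units on a colour scale that ends at -1 and 1, for the 8 arrays (columns). The column of water with TST replicate 2 is blue in 59 of the 67 genes, and that of low-dose RE replicate 2 in 45. Of all rows, 47.7% and 48.3% were below their mean on these arrays.

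The median over the genes was lowest on 1 array. Each gene was set against its own 8-array mean, and the median deviation over the 67 genes was taken on each array. It was -0.00 and 0.10 in water without TST, 0.07 and -0.30 in water with TST, 0.09 and -0.09 at the low dose and 0.03 and 0.12 at the high dose. Water with TST replicate 2 was the low array, low-dose RE replicate 2 was next, and the other 6 lay within a narrow band. On water with TST replicate 2, 59 of the 67 genes were below their mean, against 47.7% of all rows. On that array 38 genes had their lowest value of all 8 arrays, ties counted, against 21.2% of all rows. On low-dose RE replicate 2 this held for 17 genes, against 15.3% of all rows. Over all rows the median deviation on these arrays was 0.02 and 0.01. Over the rows with a mean above 10 it was -0.02 and -0.09, so that on low-dose RE replicate 2 bright rows as a whole lay about as low as the ribosomal protein genes did. After quantile normalization, the median deviation of the 67 genes on water with TST replicate 2 was -0.28. On low-dose RE replicate 2 it was then -0.03, near the -0.02 of water without TST replicate 1. In a bulk sample, fewer cells of a type and less RNA per cell cannot be told apart. On water with TST replicate 2 and low-dose RE replicate 2, the mean deviation was -1.155 and -0.74 for striatal markers and -0.81 and -0.18 for microglia markers. Forebrain, hippocampal, thalamic and choroid plexus markers were negative on the first array and positive on the second. Cerebellar, astrocyte, oligodendrocyte and endothelial markers went the other way. The part of these marker shifts in the deviations of the 67 genes was not tested. Water without TST replicate 1 was the other array with raised cerebellar markers. The ribosomal protein genes had a median deviation of -0.00 there. The mean level of the forebrain markers was 12.33 on that array and 10.21 on water with TST replicate 2. This level was 12.04 on the other unstressed array and 12.55 to 12.99 on the remaining arrays.

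**Figure D2:**
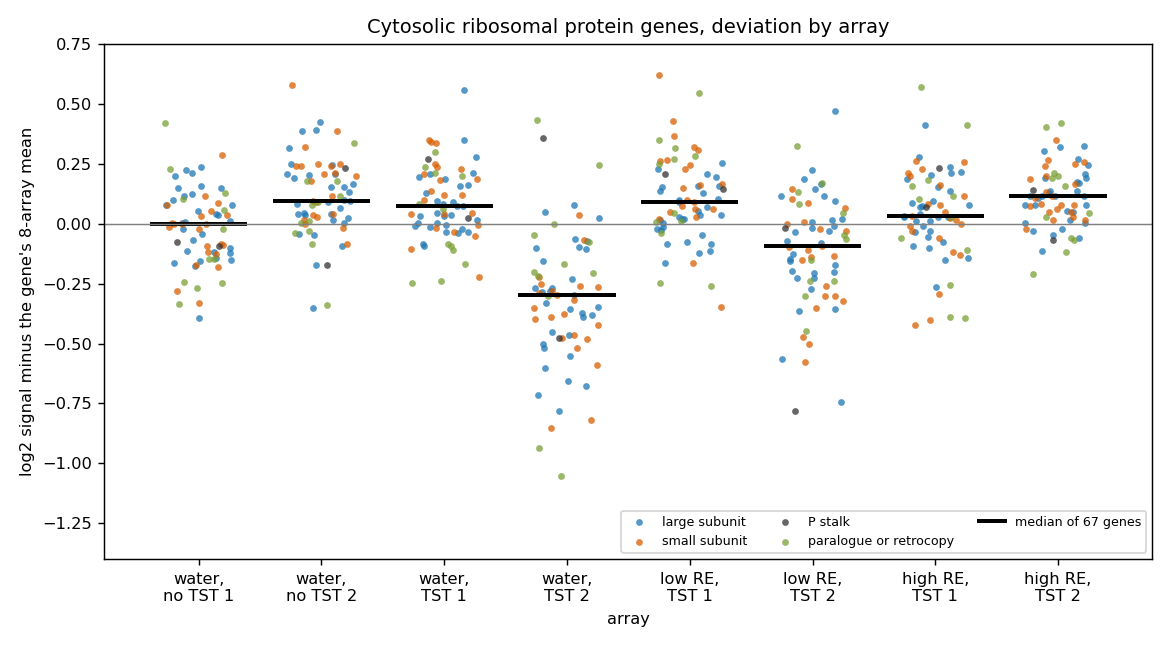
Log2 signal minus the gene's own 8-array mean (y axis) for the 67 genes on each array (x axis), coloured by role, with the median of the 67 genes as a bar. The bar lies at -0.30 on water with TST replicate 2 and between -0.09 and 0.12 on the other 7 arrays.

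Both subunits took part. On water with TST replicate 2 the median deviation was -0.33 over the 31 large-subunit genes, of which 28 were below their mean, and -0.36 over the 22 small-subunit genes, of which 21 were. Over the 12 paralogues and retrocopies it was -0.19, with 9 below. Of all rows, 47.7% were below their mean on this array. The P stalk genes differed from each other: Rplp1 was lower on replicate 2 than on replicate 1 of that group (16.48 and 15.98), and Rplp0 was not (10.62 and 10.71). From replicate 1 to replicate 2 of water with TST, 60 of the 67 genes were lower (44.8% of all rows were), with a median of -0.37. The 7 that were not lower were Rplp0, Rpl14, Rps15a and, among the paralogues and retrocopies, Rps27l, Rps4l, Rpl3l and Rpl39l. In low-dose RE 48 genes were lower on replicate 2, with a median of -0.18 (50.1% of all rows were lower). In water without TST 16 were, with a median of 0.14 (49.2%), and in high-dose RE 21, with a median of 0.05 (50.1%). By start site, on water with TST replicate 2 the median deviation was -0.30 over the 16 genes with either feature, 12 of them below their mean, and -0.33 over the 38 genes with neither, 35 of them below. The difference between these sets was not tested, and the sets depend on where the starts were annotated. Of the genes printed above with the run, Rps6 lay at -0.46, Rps18 at -0.59, Rpl38 at -0.50 and Rpl28 at 0.03 from their means there. Without the run, Rps16 lay at -0.82, Rps26 at -0.85, Rplp0 at 0.36 and Rps27l at 0.43. The printed genes were picked by their values on this array, so they cannot compare starts with and without the run. Among genes not printed, Rps27rt, with the run, lay at -0.935 and Rpl36al, without it, at -1.05.

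Other large complexes and the genes of ribosome production are given beside them. The median deviation on water with TST replicate 2 was -0.01 over 76 mitochondrial ribosomal protein genes and 0.02 over 39 proteasome subunit genes. It was 0.06 over 62 ribosome assembly factors, 0.16 over 14 genes of RNA polymerase I transcription and 0.11 over 20 genes of mTOR signalling and TOP control. It was -0.08 over 10 elongation factors (6 below their mean), -0.07 over 30 initiation factors (19 below) and -0.10 over 17 other messenger RNAs with the TOP motif (12 below). These are medians of lists without a test, and nothing particular to the ribosomal protein genes is claimed from them.

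**Figure D3:**
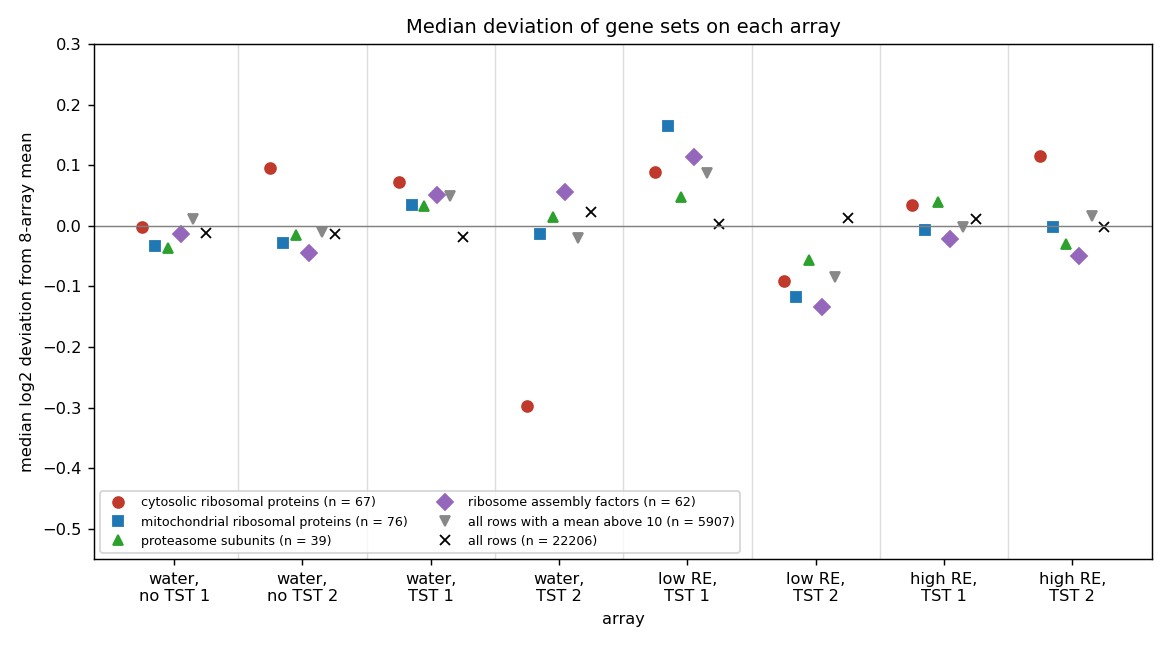
Median log2 deviation from the 8-array mean (y axis) of 6 sets of rows on each array (x axis): cytosolic ribosomal proteins, mitochondrial ribosomal proteins, proteasome subunits, ribosome assembly factors, rows with a mean above 10 and all rows. On water with TST replicate 2 the cytosolic ribosomal proteins lie at -0.30 and the other 5 sets between -0.02 and 0.06.

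The first comparison asked what TST changed in mice given water. No ribosomal protein gene passed the study's threshold, a fold change above 1.2 (0.263 in log2) with an unadjusted p under 0.05, which 2.55% of all rows passed. None had an adjusted p under 0.05 in limma (0.0% of all rows had), and 0 had an unadjusted p under 0.05. The genes nevertheless lay mostly on 1 side of zero: 52 of 67 were lower with TST, against 49.2% of all rows, with a median of -0.195 and a median SE of 0.259 for a single gene. Both arrays with TST were below both without it in 19 genes (13.3% of all rows), and above both in 3 genes (14.2%). By role, 26 of 31 large-subunit genes were lower (median -0.18), 18 of 22 small-subunit genes (median -0.205) and 7 of 12 paralogues and retrocopies (median -0.2525). Without water with TST replicate 2 the median over the 67 genes was 0.025 and 29 were lower, and Rpl10a then passed the threshold, higher at 0.735 (3.29% of all rows passed). Without water with TST replicate 1 the median was -0.365, and 12 genes (17.9%) passed it, all lower, close to the 16.7% of all rows that did. Replicate 1 alone lay below both arrays without TST in 19 genes and above both in 22 (33.0% and 31.7% of all rows). Replicate 2 lay below both in 52 (36.0%).

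Among the lower genes, Rpl21 had the lowest p. It was at 16.23 and 16.47 in water without TST, 16.07 and 15.63 in water with TST, 16.10 and 16 at the low dose and 15.98 and 16.16 at the high dose. All 6 arrays with TST were below both without it, and 6 of its 8 values exceed or equal 16. The TST difference was -0.50 (SE 0.247, unadjusted p = 0.077 and adjusted p = 0.997 in limma). For Rps26, with the values given above, it was -0.765 (SE 0.397, unadjusted p = 0.089 in limma), and -0.245 without replicate 2 of water with TST. Rps16, a small-subunit gene, was at 11.68 and 11.84, 11.72 and 10.78, 11.83 and 11.30, and 11.81 and 11.84. The first array with TST lay between both arrays without it and the second was the lowest of all 8, so the groups overlap, at -0.51 (SE 0.339).

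The higher side held few genes. Rps27l, a paralogue of Rps27 known as a p53 target, was at 8.50 and 8.41 without TST, 8.83 and 9.18 with TST, 8.49 and 8.88 at the low dose and 9.16 and 8.54 at the high dose. The water groups do not overlap, and in each RE group 1 array was close to unstressed water and 1 within the range of water with TST. Its TST difference was 0.55 (SE 0.289, unadjusted p = 0.092 and adjusted p = 0.997 in limma). Rplp0, the scaffold of the P stalk and a common reference gene in quantitative PCR, was at 10.26 and 10.18, then 10.62 and 10.71, then 10.56 and 9.57, and 10.42 and 10.49. Its TST difference was 0.445 (SE 0.322, unadjusted p = 0.203 in limma). Here too the water groups do not overlap, while 1 low-dose array lay between them and the other below both. Rpl11 completes the genes above in both arrays, at only 0.06 (SE 0.213).

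**Figure D4:**
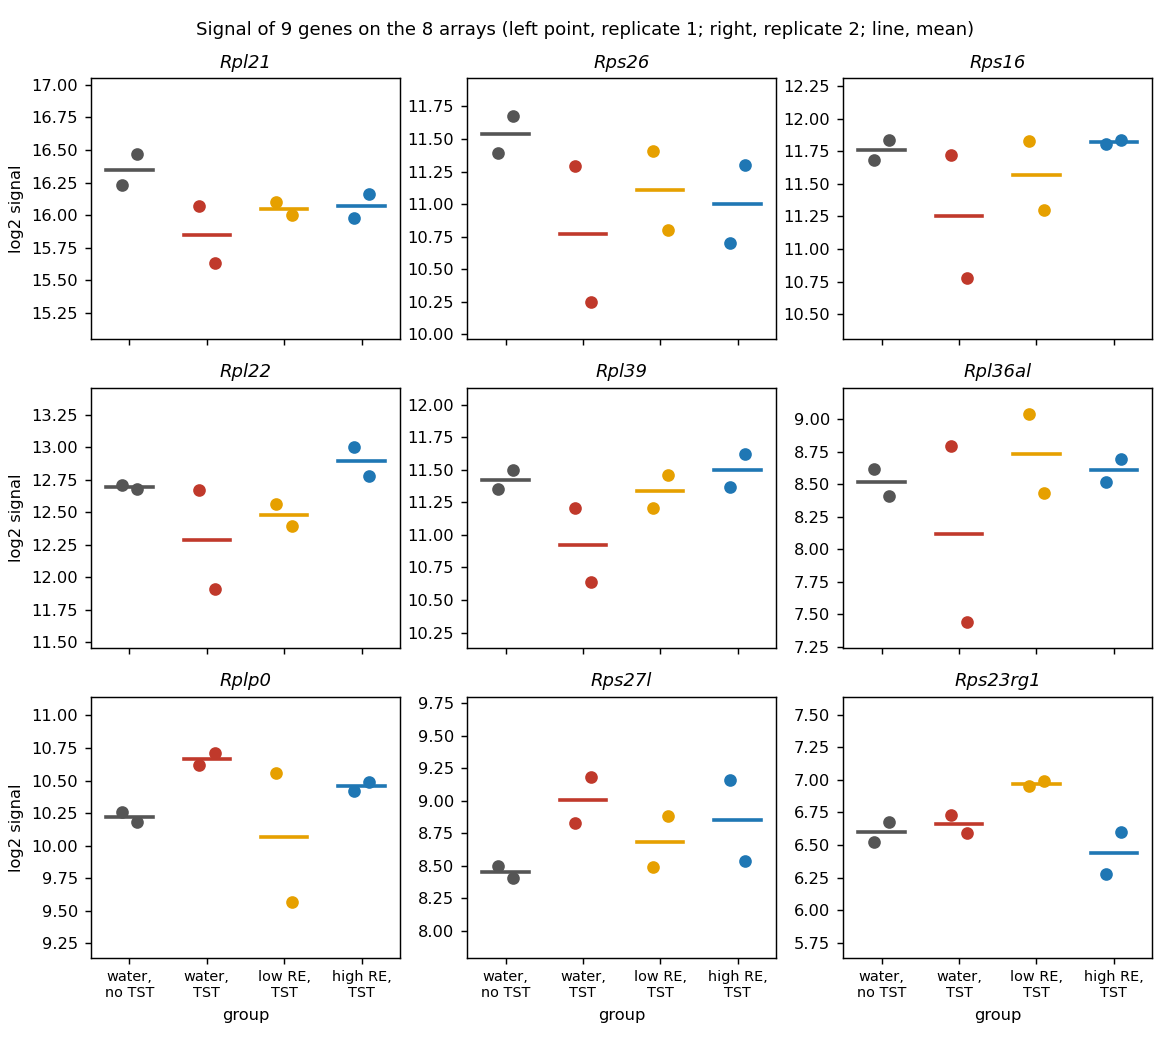
Log2 signal (y axis) of 9 genes on the 8 arrays by group (x axis), with replicate 1 as the left point, replicate 2 as the right point and the group mean as a line; every panel spans 2 log2 units. The right point of water with TST is the lowest of the 8 in Rpl21, Rps26, Rps16, Rpl22, Rpl39 and Rpl36al and the highest in Rplp0 and Rps27l.

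The second comparison asked how low-dose RE differed from water under TST. No ribosomal protein gene passed the study's threshold (3.54% of all rows did) or an adjusted p of 0.05 in limma (0.0% of all rows), and 0 had an unadjusted p under 0.05. The median difference was 0.135 and 48 of 67 genes were higher, against 51.9% of all rows. Both low-dose arrays were above both water arrays in 8 genes (13.1% of all rows) and below both in 5 (11.9%). By role, 21 of 31 large-subunit genes, 18 of 22 small-subunit genes and 8 of 12 paralogues and retrocopies were higher. Without water with TST replicate 2 the median was -0.055 and 44 genes were lower. With that array kept and replicate 1 left out, the median was 0.315 and 7 genes (10.4%) passed the threshold, a smaller share than the 17.0% of all rows. Without low-dose RE replicate 1, Rplp0 passed it, lower at -1.095, as did 7.76% of all rows.

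Rpl36al had the largest positive difference, 0.62 (SE 0.424, unadjusted p = 0.181 in limma). Its sign turned to -0.055 without water with TST replicate 2. Rpl39, a small protein lining the exit tunnel for the growing chain, was at 11.35 and 11.50 without TST, 11.21 and 10.64 with TST, 11.21 and 11.46 at the low dose and 11.37 and 11.62 at the high dose. The low-dose difference was 0.41 (SE 0.268, unadjusted p = 0.164 in limma). The lower of its low-dose values equals the higher of its values in water with TST. On the other side stood Rplp0 at -0.60 (SE 0.322, unadjusted p = 0.098 in limma), most of it from the value of 9.57 on low-dose RE replicate 2. Rps3a1, a small-subunit gene, was at 12.35 and 12.69, 12.66 and 12.41, 12.13 and 12.34, and 12.74 and 12.49. Both low-dose arrays were the lowest of the 8, and the difference was -0.30 (SE 0.246, unadjusted p = 0.257 in limma).

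The third comparison set high-dose RE against the same water arrays with TST. Since those arrays serve both comparisons, a low value on 1 of them raises both differences together. No gene passed the threshold (3.17% of all rows did) or an adjusted p of 0.05 in limma (0.0% of all rows), and 0 had an unadjusted p under 0.05. The median was 0.21, and 56 of 67 genes were higher, against 51.2% of all rows. Both high-dose arrays were above both water arrays in 20 genes (15.3% of all rows) and below both in 2 (15.2%), Rpl7a and Rplp0. By role, 28 of 31 large-subunit genes were higher (median 0.21), 19 of 22 small-subunit genes (median 0.2275) and 8 of 12 paralogues and retrocopies (median 0.165). Without water with TST replicate 2 the median was 0.00, with 32 genes lower. Without replicate 1 it was 0.41, and 10 genes (14.9%) passed the threshold, no larger a share than the 17.0% of all rows. Without high-dose RE replicate 2, Rpl39l passed it, at 0.80, as did 1.81% of all rows.

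Rpl39 again had a low p, at 0.57 (SE 0.268, unadjusted p = 0.065 and adjusted p = 0.973 in limma). Rpl22, a large-subunit protein that in mice restrains its paralogue Rpl22l1, was at 12.71 and 12.68 without TST, 12.67 and 11.91 with TST, 12.56 and 12.39 at the low dose and 13.00 and 12.78 at the high dose. Both high-dose arrays were the highest of the 8. The high-dose difference was 0.60 (SE 0.288, unadjusted p = 0.070 in limma), and 0.22 without water with TST replicate 2. After quantile normalization it was 0.63 and passed the threshold (3.73% of all rows did), as it did with a trended, robust variance prior (3.11% of all rows). Rpsa, also known as the laminin receptor, was at 12.08 and 12.61, 12.14 and 12.10, 12.41 and 12.34, and 12.59 and 12.62. Its high-dose difference was 0.485 (SE 0.247, unadjusted p = 0.084 in limma). Here both water arrays with TST are close together, and both are below all 4 RE arrays.

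The lowest p on the lower side belonged to the copies Rps23rg1, at -0.22 (SE 0.229), and Rps4l, at -0.185 (SE 0.275). Rps4l, listed as a transcribed pseudogene, was at 7.42 and 7.87, 7.67 and 8.0, 8.07 and 7.71, and 7.5 and 7.80, and its high-dose and water values overlap.

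The fourth comparison set the high against the low dose. It uses no water array. Of the 67 genes 48 were higher at the high dose, against 48.9% of all rows, with a median of 0.085, and 1 gene passed the study's threshold, Rps23rg1 (1.91% of all rows passed it). No adjusted p was under 0.05 in limma (0.0% of all rows). High-dose arrays were both above the low-dose arrays in 13 genes (12.9% of all rows) and both below in 4 (13.7%), namely Rpl10a, Rpl27, Rpl9 and Rps23rg1. Without low-dose RE replicate 2 the median was 0.00, and without low-dose RE replicate 1 it was 0.185, where Rpl6 and Rplp0 (2.99% of the genes) passed the threshold, against 5.33% of all rows, and Rps23rg1 did not.

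Rps23rg1 is a retrocopy of Rps23 studied for effects of its product on amyloid and tau. It was at 6.52 and 6.68 in water without TST, 6.73 and 6.59 in water with TST, 6.95 and 6.99 at the low dose and 6.28 and 6.60 at the high dose. Its low-dose arrays were the highest of the 8. The dose difference was -0.53 (SE 0.229, 95% interval -1.06 to -0.005), with an unadjusted p = 0.0483 and an adjusted p of 1.00 in limma. The row mean lies below the median of all values. It lost the threshold in 6 of the 8 fits that left out an array and in 6 of 8 other settings. Its parent gene Rps23, in the same order of groups, was at 16.78 and 17.07, 16.99 and 16.58, 16.89 and 16.87, and 16.86 and 16.92, with all 8 values above 16.

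On the higher side of the dose comparison, Rpl6 was at 15.01 and 14.41 at the low dose and 15.00 and 15.22 at the high dose, a difference of 0.40 (SE 0.277, unadjusted p = 0.186 in limma). The groups overlap, and the value of 14.41 is the lowest of its 8. For Rps3a1 the difference was 0.38 (SE 0.246, unadjusted p = 0.160 in limma), and its dose groups do not overlap.

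The last comparison set the mean of both RE groups against unstressed water, which leaves out water with TST. The genes were evenly split there: 34 were higher and 33 lower, with a median of 0.01, against 52.7% of all rows higher. As given above, the mean of the thalamic markers was higher on all 4 RE arrays than on both unstressed arrays. No ribosomal protein gene passed the threshold (2.89% of all rows did) or an adjusted p of 0.05 in limma (0.0% of all rows), and 0 had an unadjusted p under 0.05. All 4 RE arrays were above both unstressed arrays in 4 genes (8.85% of all rows), Rpl11, Rpl38, Rpl41 and Rps18. They were below both in 5 (6.21%), Rpl17, Rpl21, Rpl36, Rpl36a and Rpl3l.

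Rpl38, a large-subunit protein known for its part in translating Hox messenger RNAs, was at 13.29 and 12.82 in unstressed water and 13.30, 13.36, 13.31 and 13.30 in the RE arrays. The difference of 0.2625 (SE 0.250, unadjusted p = 0.323 in limma) came from the second unstressed array, since the first was next to the RE values. Rpl17 was at 15.91 and 16.11 in unstressed water, 15.78 and 15.33 at the low dose and 15.68 and 15.63 at the high dose, a difference of -0.405 (SE 0.231, unadjusted p = 0.116 in limma). Rpl3l, the form of heart and skeletal muscle, was at 4.89 and 4.65 in unstressed water, 4.23 and 4.47 in water with TST, 4.43 and 4.23 at the low dose and 4.36 and 4.50 at the high dose. Its difference was -0.39 (SE 0.201, unadjusted p = 0.087 in limma), at the dimmest signal of the 67 genes. For Rps27l the difference was 0.3125 (SE 0.251, unadjusted p = 0.246 in limma).

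**Figure D5:**
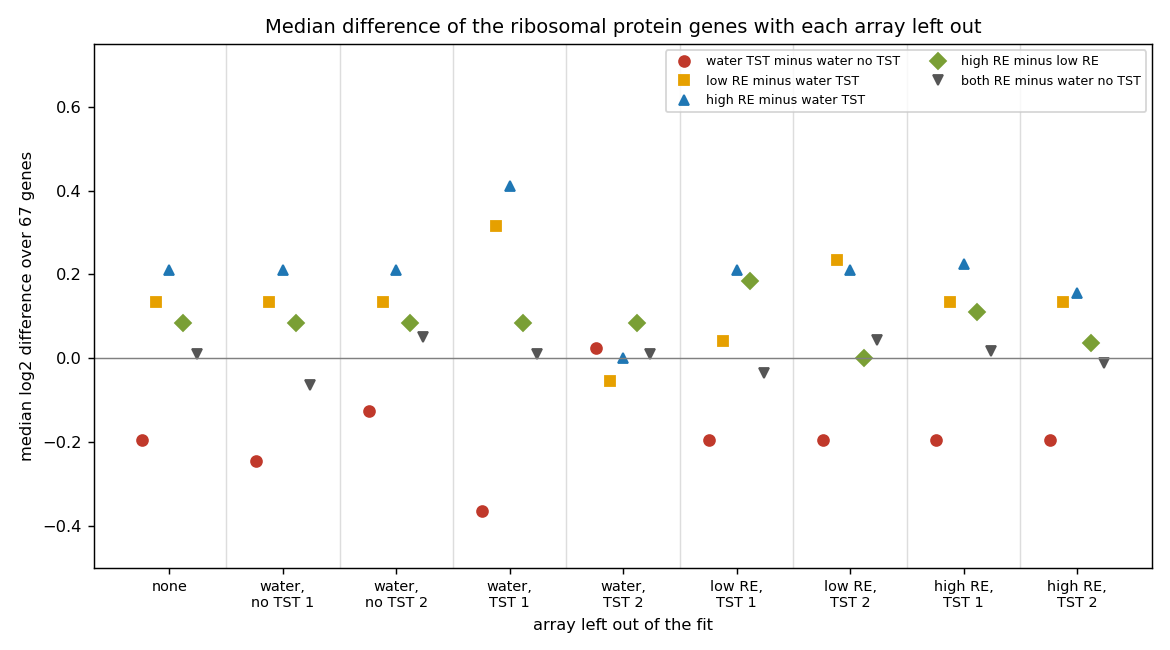
Median log2 difference over the 67 genes (y axis) for the 5 comparisons, with all arrays (none) and with each array left out of the fit (x axis). Without water with TST replicate 2 the medians for TST, for the low dose and for the high dose are 0.025, -0.055 and 0.00, and the median of both RE groups against unstressed water lies between -0.065 and 0.05 throughout.

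A test for any difference among the 4 groups made no call. In the moderated F-test of limma no ribosomal protein gene had an unadjusted p under 0.05 (1.82% of all rows had) or an adjusted p under 0.05 (0.0% of all rows). In each of the 5 comparisons the 95% interval of every one of the 67 genes reached past a fold of 1.2 on at least 1 side, as did that of all 22206 rows. This follows from the number of arrays and is no result about these genes.

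Values of other genes with known roles follow. Rps6, whose phosphorylation is a common readout of mTOR signalling, was at 15.58 and 15.76, 15.71 and 15.20, 15.69 and 15.81, and 15.78 and 15.78. Its lowest value was again water with TST replicate 2 and the other 7 lay between 15.58 and 15.81. Rpl5 was at 13.96 and 14.03, 14.04 and 13.81, 14.33 and 14.17, and 14.02 and 14.25, with a low-dose difference of 0.325 (SE 0.227). Both its low-dose arrays were above all 4 water arrays. Rps19, mutated in Diamond-Blackfan anaemia, was at 10.25 and 10.60, 10.39 and 10.07, 10.59 and 10.27, and 10.62 and 10.59. Rps4x, the X-linked form of a small-subunit protein, was at 11.31 and 11.55, 11.41 and 10.79, 11.47 and 11.28, and 11.28 and 11.39. Rplp1, the partner of Rplp2 in the stalk, was at 16.38 and 16.69, 16.48 and 15.98, 16.60 and 16.44, and 16.69 and 16.39. In Rps19, Rps4x and Rplp1 the lowest of the 8 values was that of water with TST replicate 2.

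Paralogues can be set beside their parent genes. Rpl22l1 was at 9.92 and 10.02, 9.77 and 9.72, 9.95 and 10.11, and 9.88 and 10.15. Its TST difference of -0.225 (SE 0.224) stood beside -0.405 (SE 0.288) for Rpl22, and its high-dose difference of 0.27 (SE 0.224) beside 0.60 for Rpl22. Rpl36a was at 12.10 and 12.20, 12.16 and 11.72, 11.84 and 11.59, and 11.98 and 12.03, with a low-dose difference of -0.225 (SE 0.244) where its copy Rpl36al was at 0.62 (SE 0.424). Rpl39l and Rpl10l, the forms of the testis, were among the 4 genes with a mean below the median of all values. Rpl39l was at 5.52 and 5.42, 5.17 and 5.21, 5.17 and 5.50, and 5.99 and 5.36, and Rpl10l at 7.01 and 6.96, 6.69 and 6.58, 6.79 and 6.63, and 6.39 and 7.20. The highest value of each lay on 1 high-dose array, and the other array of that group was well below it in both genes. Rpl7l1, an assembly factor related to Rpl7, was at 9.61 and 9.73, 9.97 and 9.71, 10.03 and 9.52, and 9.86 and 9.64. Probes for paralogues, retrocopies and the many processed pseudogenes of this family can share sequence, so that single values of such pairs are uncertain.

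The other genes of translation and ribosome production were followed in the lists named above. Between 1.91% and 3.54% of all rows passed the threshold in the 5 comparisons, and the few calls in these lists are to be read against those shares. Of 30 initiation factors, 1 passed the threshold in each of 3 comparisons, about the share of all rows. Eif2b2, a subunit of the exchange factor for initiation factor eIF2, was lower with TST at -0.695 (SE 0.267) and higher at the high dose at 0.69 (SE 0.267). Its values were 9.01 and 8.89, 8.57 and 7.94, 8.63 and 8.85, and 8.96 and 8.93, again lowest on water with TST replicate 2. Eif2b1, of the same complex, was lower at the low dose at -0.735 (SE 0.246). Among the 10 genes listed under elongation and 20 genes of mTOR signalling and TOP control, none passed in any comparison. Of 62 assembly factors, no more than 3 passed in any comparison. Rrp15 passed with TST (0.595, SE 0.254) and Nop2 at the low dose (0.575, SE 0.240), both higher. Against unstressed water, Nop2 (0.535) and Mrto4 (0.47) were higher and Npm1 (-0.52) lower with RE. Of 14 genes of RNA polymerase I transcription, only Polr1d passed in any comparison. Polr1d, a subunit of RNA polymerases I and III, was lower at the low dose (-0.66, SE 0.225) and with RE against unstressed water (-0.56). Of the 17 messenger RNAs listed as TOP, Vim was lower at the low dose (-1.43, SE 0.588) and at the high dose (-1.525, SE 0.588). Its value was 10.93 on water with TST replicate 2 and between 8.27 and 9.17 on its other 7 arrays. Btf3 was lower with RE against unstressed water (-0.54), as was Npm1. No adjusted p of these genes was under 0.05 in limma. Fau, which encodes a small-subunit protein that the symbol rule misses, was at -0.045 (SE 0.255) with TST, -0.155 at the low dose and 0.115 at the high dose.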

How the data were processed

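RNA of 8 samples was measured on 1 Clariom S array each. Per the submitters' design text and processing notes, the authors used Transcriptome Analysis Console 4.0.1 and its robust multichip average (RMA) for normalization. What they deposited are log2 signals with 2 decimals, from 2.76 to 19.79, and 1359 exceed 16; they were used as deposited. The sources used here name no genome build for the platform, and coordinates are printed only for RefSeq start sites (GRCm38.p6).

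In limma 3.58.1 (R 4.3.3), group means were fitted to all 22206 rows and 8 arrays with lmFit and eBayes, with 4 residual and 4.30 prior degrees of freedom. P-values are two-sided, and adjusted ones follow Benjamini-Hochberg across the 22206 rows. The study's threshold was a fold above 1.2 and an unadjusted p under 0.05. The scripts were tested on simulated data.

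The members, marker lists and pathway lists were chosen with earlier results of these data known, so no list was tested. Genes were named by rule: per comparison and direction, up to 3 past the threshold or else the 2 with the lowest p; the 5 widest and 3 narrowest ranges; and a set list of stalk, paralogue and well-studied genes. Pathway genes were named where past the threshold, and Eef2k and Eef1e1 to describe their list. Rps23, Rpl28, Rps18, Rpl14, Rps15a, Rpl7a, Rpl27, Rpl9, Rpl41, Rpl36 and the markers were added after their values were seen, as counts of 5 or fewer or for their start sites.

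Alternatives were a replicate block, only the groups compared, a trended and robust prior, dropping the dimmest 25% of rows, quantile normalization, median centring, leaving out each array, the study's one-way analysis of variance, the mean of all rows of a gene, and, added after seeing the data, only members brighter than the median of all values.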

Additional observations from a re-analysis of the deposited data

How the results depend on the processing

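The median TST, low-dose and high-dose differences over the 67 genes (-0.195, 0.135 and 0.21) ranged over the fits leaving out 1 array from -0.365 to 0.025, from -0.055 to 0.315 and from 0.00 to 0.41. The extremes came from leaving out replicate 1 or replicate 2 of water with TST. Over the same fits the dose median ranged from 0.00 to 0.185 and that of RE against unstressed water from -0.065 to 0.05. In all other settings the 5 medians moved by less than the spread between replicates (SD 0.152). The cause was not tested, but a group with an array left out has 1 array, assumed to vary like the others.

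The counts of genes past the study's threshold ranged from 0 to 12 for TST, 0 to 7 for the low dose, 0 to 10 for the high dose and 0 to 2 for the dose difference with an array left out. The highest counts are 17.9%, 10.4%, 14.9% and 2.99% of the genes, where 16.7%, 17.0%, 17.0% and 5.33% of all rows passed in the same fits. For TST it was 1 with the trended, robust prior (Rpl21, 1.49% of the genes against 2.36% of all rows). With the analysis of variance it was 3 (Rpl10l, Rpl39l and Rplp0, 4.48% of the genes against 2.72% of all rows). For the high dose it was 1 with that prior and 1 with quantile normalization (Rpl22 in both), and 1 with the analysis of variance (Rpsa). Each is 1.49% of the genes, against 3.11%, 3.73% and 2.92% of all rows in the same order. For RE against unstressed water it was 1 with the analysis of variance (Rpl3l, 1.49% of the genes against 4.44% of all rows). The dose difference had 1 gene, Rps23rg1, and 0 with only the groups compared, the trended and robust prior, quantile normalization, median centring, the analysis of variance and members brighter than the median. Rows past an adjusted p of 0.05 in limma ranged from 0 to 512, 0 to 958, 0 to 928 and 0 to 8 for these 4 comparisons with an array left out.

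The replicate block took the dose count from 1 to 0 and changed no other count. Correlations of replicate deviations between groups lay between -0.293 and 0.169. They show no pairing of the samples by replicate number, but they cannot show that there was none. Of the named genes' alternatives 277 kept their direction and side, 13 gained the threshold, 12 lost it (all Rps23rg1) and 1 reversed: the low-dose difference of Rpl36al was -0.055 without water with TST replicate 2 and at most 1.295, without replicate 1.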
